A study of Mus musculus with 11 samples.

Results

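The myoblast-only MyoD sites are the ChIP-seq (chromatin immunoprecipitation with sequencing) peaks of MyoD in proliferating C2C12 myoblasts that share no base with a MyoD peak of C2C12 myotubes. There were 4734 of them among 18141 MyoD peaks in myoblasts. The other 13407 overlapped 1 of the 39700 myotube MyoD peaks by 1 bp or more and are called kept peaks. The sites were thus chosen by the measured MyoD lists of both stages, and the MyoD scores and distances to myotube MyoD peaks given here describe that choice and test nothing. Each list carries a score of at least 60 given by the authors, and a site absent from the myotube list may still be bound below that minimum.

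C2C12 is a mouse myoblast line, labelled as strain C3H. The myotubes had spent 48 h in 2% horse serum with insulin, transferrin and selenium, and the myoblasts were growing in 10% fetal bovine serum. MyoD was precipitated with antibody C-20, the related factor MyoG with M-225 in myotubes, and the histone mark H3K4me1 with ab8895 at both stages. PolyA RNA came from cells at 4 h of differentiation, which were neither the myoblasts nor the 48 h myotubes of the ChIP-seq. DRRi cells received RNAi against an RNA made at DRR, an enhancer of the MyoD gene Myod1, with RNAi against GFP (GFPi) as control. The pHAN_DRR1.2 cells overexpressed the DRR RNA, with GFP overexpression (pHAN_GFP) as control. Of 11 samples, 9 in 9 groups were used. The other 2, ribosome-depleted RNA, were not analysed here. Each group held 1 library, so no difference has a replicate check and no test between groups was possible. Intervals on shares are exact 95% Clopper-Pearson intervals and cover counting error only.

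MyoD is a basic helix-loop-helix factor that commits cells to the muscle lineage and binds the E-box, CANNTG, as a dimer with an E protein. It is already bound at many sites in growing myoblasts, where Id proteins and other inhibitors restrain it. MyoG, a factor of the same family, is made once differentiation begins and can bind many of the same E-boxes. H3K4me1 marks enhancers, both active and poised.

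The sequences of the peaks themselves are not shown, because no genome of their build, mm9, was at hand. Promoters under a peak could be read from RefSeq (GRCm38.p6, matched by gene symbol), as the 250 bases before the gene's start. Of 6323 genes whose promoter could be placed, 27 had it under a myoblast-only peak. The 3 shown had the highest peak scores among those with an E-box and a gene at 1 FPKM or more in both control libraries, a choice made after the values were seen. Capitals mark every CANNTG, read 5′ to 3′ along the gene's strand. Since the 3 were picked for an E-box, they cannot show how often such promoters hold it. A peak need not cover the whole promoter, so a marked E-box may lie outside the peak, and binding to it was not tested.
Lgals3: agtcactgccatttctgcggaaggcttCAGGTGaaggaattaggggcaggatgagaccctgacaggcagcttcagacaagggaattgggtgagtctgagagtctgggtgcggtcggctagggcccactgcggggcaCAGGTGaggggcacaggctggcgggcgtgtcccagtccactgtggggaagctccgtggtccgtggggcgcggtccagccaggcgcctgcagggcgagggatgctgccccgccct
Gne: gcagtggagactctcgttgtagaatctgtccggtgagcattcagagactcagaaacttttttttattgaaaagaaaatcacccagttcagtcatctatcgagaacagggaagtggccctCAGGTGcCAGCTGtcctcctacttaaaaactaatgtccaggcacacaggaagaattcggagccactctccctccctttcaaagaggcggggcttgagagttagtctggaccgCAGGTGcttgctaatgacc
Sprr1a: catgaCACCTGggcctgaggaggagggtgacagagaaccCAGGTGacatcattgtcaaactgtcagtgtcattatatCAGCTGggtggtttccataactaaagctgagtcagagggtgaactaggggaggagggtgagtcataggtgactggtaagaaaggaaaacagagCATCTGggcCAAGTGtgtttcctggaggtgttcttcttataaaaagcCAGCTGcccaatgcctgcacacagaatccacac

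The Lgals3 promoter, chr14:47373610-47373859 on the plus strand of GRCm38.p6, held 2 E-boxes, both of the CAGGTG type. Lgals3 encodes galectin-3, a lectin that binds galactose-containing sugars. Its peak (mm9, chr14:47993147-47994605) had a score of 185.7 and lay 1313 bp from a myotube MyoD peak, inside H3K4me1 at both stages (3.65-fold in myotubes, 2.86-fold in myoblasts). The Gne promoter, chr4:44084178-44084427 on the minus strand, held 3 E-boxes, among them a CAGGTG and a CAGCTG 1 base apart. Gne encodes the enzyme that starts sialic acid synthesis. Its peak (mm9, chr4:44096635-44097267, score 183.52) lay in a myoblast H3K4me1 domain of 2.52-fold, met no myotube domain and overlapped a MyoG peak. The Sprr1a promoter, chr3:92485882-92486131 on the minus strand, held 6 E-boxes and 2 copies of the AP-1 motif TGACTCA or TGAGTCA. Sprr1a encodes a small proline-rich protein known from the cornified envelope of skin. Its peak (mm9, chr3:92289569-92290338, score 134.37) was 337205 bp from the nearest myotube MyoD peak and overlapped a MyoG peak.

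Of the 27 promoters under a myoblast-only peak, 15 held at least 1 CANNTG (55.6%, interval 35.3 to 74.5). The share was 72.4% of 257 promoters under a kept peak and 64.6% of all 6323. The E-box CAGCTG, which is its own reverse complement, was in 5 (18.5%), against 31.1% under kept peaks and 11.4% of all promoters. CAGGTG or CACCTG, 1 motif read on both strands, was in 9 (33.3%), against 23.3% under kept peaks and 16.1% of all. CATCTG or CAGATG was in 5 (18.5%), against 11.3% and 14.2%. These E-box types are all forms of CANNTG, so a promoter can count in several. The AP-1 motif, in either orientation, was in 3 (11.1%), against 5.06% and 4.78%. With 27 promoters the intervals are wide, and for CANNTG the interval held both other shares.

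Myoblast-only peaks were weaker than kept peaks by the authors' score. Their median score was 100.07, with quartiles at 74.4 and 156, against a median of 213 with quartiles at 107 and 533 for kept peaks. Scores under 100 belonged to 2361 of them (49.9%), against 2964 kept peaks (22.1%). Scores of 500 or more belonged to 141 (2.98%), against 3562 kept peaks (26.6%). The share of myoblast peaks that were myoblast-only was 48.2% at scores of 60 to 75 and 3.81% at 500 or more. A floor of 100 on the myoblast score would leave 2373 sites. Peaks were also narrower, at a median of 727 bp, against 832 bp for kept peaks.

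The overlap rule has a sharp edge, and few sites lay within 50 bp of it. The smallest gaps to a myotube peak were 6, 11, 16, 17 and 19 bp, at sites with scores of 81.0, 78.2, 194, 74.5 and 119. The smallest overlaps among kept peaks were 7, 11, 14, 18 and 21 bp, at scores of 60.9, 60.7, 146, 63.2 and 63.9. Within 50 bp of the edge stood 15 myoblast-only peaks and 11 kept peaks. Wider changes of the rule moved more sites. Counting a gap of 500 bp or less as shared left 4542 myoblast-only sites, and requiring 50% of the peak to be covered gave 5053.

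Most myoblast-only sites carried H3K4me1 in myoblasts, and fewer did in myotubes. In myotubes 3280 of 4734 lay in an H3K4me1 domain (69.3%, interval 67.9 to 70.6), against 90.9% of kept peaks (90.4 to 91.3) and 85.2% of all myoblast MyoD peaks. In myoblasts 4067 did (85.9%, 84.9 to 86.9), against 87.0% of kept peaks (86.4 to 87.6) and 86.7% of all. The gap between myoblast-only and kept peaks was thus wide in myotubes, beyond counting error, while the intervals overlapped in myoblasts. Where a domain had to cover 50% of the peak, the order in myoblasts turned round, at 84.5% of myoblast-only and 83.6% of kept peaks. Domains were called separately at each stage from 1 library each, so the libraries and the stages cannot be told apart.

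Sorted by both stages, 3171 sites (67.0%) were marked at both, against 83.4% of kept peaks. Marked in myoblasts and not in myotubes were 896 (18.9%), against 492 kept peaks (3.67%). Marked in myotubes and not in myoblasts were 109 (2.30%), against 7.50% of kept peaks. Neither stage had a domain at 558 (11.8%), against 5.47% of kept peaks. Of the sites marked in myoblasts, 78.0% were marked in myotubes too, against 95.8% of kept peaks. Of all 66863 myoblast domains 71.9% overlapped a myotube domain, and 67.0% of those without any myoblast MyoD peak did. These last shares count domains, whereas the shares before them count peaks.

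The gap in myotubes was also present between peaks of like score. Kept peaks, weighted to the score mix of the myoblast-only sites, had H3K4me1 in myotubes at 87.9% and in myoblasts at 80.5%. At scores of 60 to 75 the myotube mark was on 65.3% of myoblast-only sites, against 85.6% of kept peaks, and at 500 or more on 67.4%, against 95.8%. In myoblasts the myoblast-only sites had the higher share in the 5 score classes below 500. At 60 to 75, 79.4% of them were marked, against 73.6% of kept peaks, at 150 to 250 92.5%, against 86.7%, and at 250 to 500 93.0%, against 91.9%. At 500 or more the shares were 92.2% and 96.7%.

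**Figure D1:**
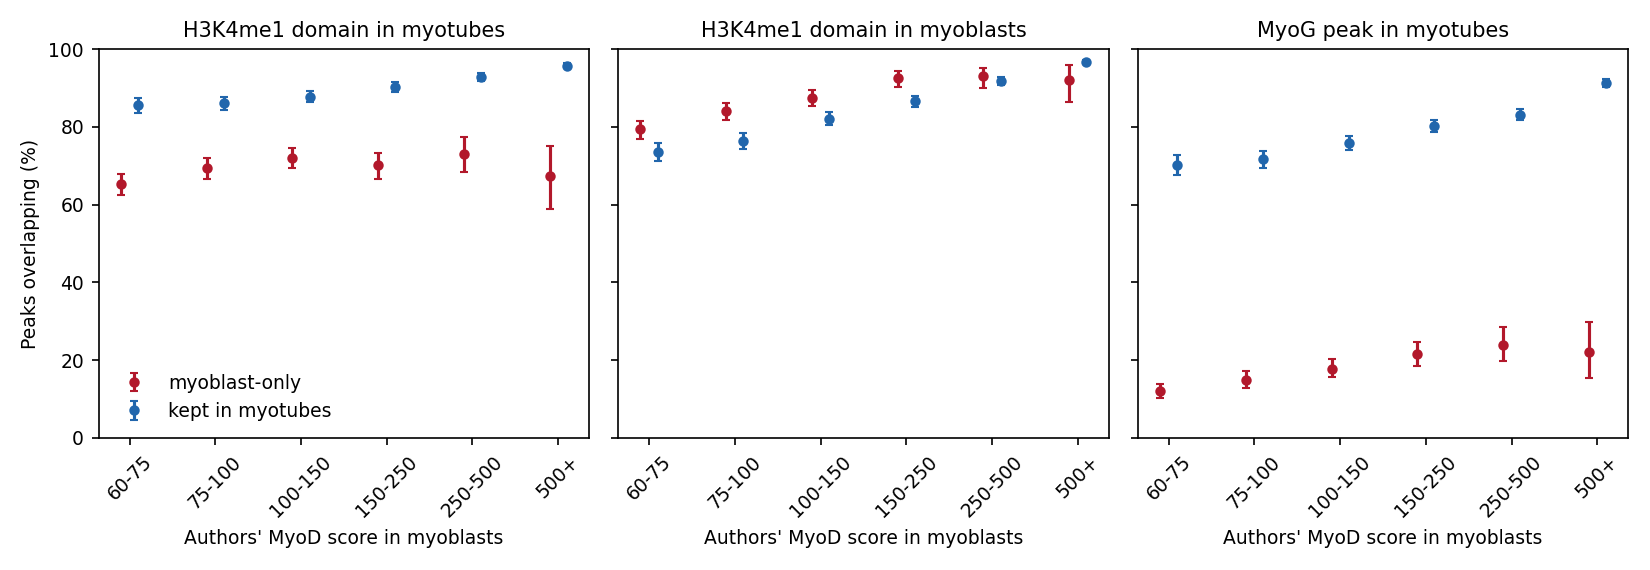
Share of myoblast-only (red) and kept (blue) MyoD peaks that overlap an H3K4me1 domain in myotubes, an H3K4me1 domain in myoblasts or a MyoG peak in myotubes (vertical axes, percent), by the authors' MyoD score in myoblasts (horizontal axes). Points are shares in 1 library with exact 95% binomial intervals; in the myotube panels every red point lies below its blue neighbour, as at 65.3% and 85.6% for H3K4me1 at scores of 60 to 75.

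Where a site was marked at both stages, the fold of the domain over it also differed between the sets. This fold belongs to the whole domain and not to the site, so peaks in the same domain share it. The authors give each domain a fold, which equals the ratio of ChIP to control reads times a constant of the file, 0.983 in myotubes and 0.858 in myoblasts. At myoblast-only sites its median was 2.92 in myotubes and 3.02 in myoblasts, and the median log2 difference, myotube over myoblast, was -0.02 with quartiles at -0.35 and 0.31. At kept peaks the medians were 3.47 in myotubes and 2.82 in myoblasts, and the median difference was 0.32 with quartiles at 0.04 and 0.60. All myoblast domains that met a myotube domain, each counted once, had a median difference of 0.29. A value near 0 was thus low for these libraries. The fold was lower in myotubes at 51.8% of myoblast-only sites, against 22.0% of kept peaks. A drop of 2-fold or more was seen at 94 sites (2.96%), against 0.555% of kept peaks. The domains over myoblast-only sites had a median length of 3200 bp in myotubes and 5000 bp in myoblasts. Over kept peaks the medians were 5400 bp in myotubes and 4800 bp in myoblasts.

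**Figure D2:**
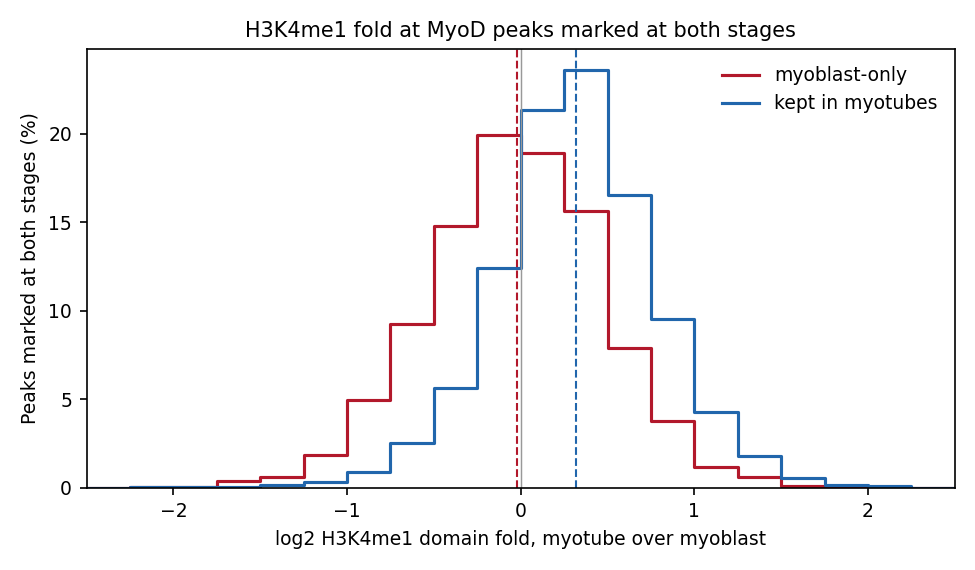
Difference in H3K4me1 domain fold, log2 of myotube over myoblast (horizontal axis), for 3171 myoblast-only (red) and 11175 kept (blue) MyoD peaks marked at both stages, as the percent of each set in each bin (vertical axis). Dashed lines are medians, at -0.02 for myoblast-only and 0.32 for kept peaks, and the grey line is 0.

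A minority of the marked sites shared a myoblast domain with a kept peak, or a myotube domain with a myotube MyoD peak. Other myoblast-only peaks in the same domain were not counted. Of the 4067 sites marked in myoblasts, 692 (17.0%) shared the domain with a kept MyoD peak, and 95.8% of these were marked in myotubes. Of the 3375 in domains with no kept peak, 74.3% were. Among the 3280 sites marked in myotubes, 833 (25.4%) lay in a domain that held a myotube MyoD peak elsewhere. At 1911 (58.3%) the myotube domain held neither a MyoD nor a MyoG peak.

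MyoG was found at few myoblast-only sites. A MyoG peak of myotubes overlapped 796 (16.8%, interval 15.8 to 17.9), against 10864 kept peaks (81.0%, 80.4 to 81.7) and 64.3% of all myoblast MyoD peaks. Weighted to the score mix of the myoblast-only sites, the share of kept peaks was 75.2%. MyoG was mapped in myotubes only, the stage at which these sites had no MyoD peak. The MyoG peaks at myoblast-only sites were themselves weak, with a median MyoG score of 87.0, against 264 at kept peaks and 136 over all 35380 MyoG peaks. With only MyoG peaks of score 100 or more, the shares were 5.91% and 69.5%. Centres of the paired peaks were a median of 63 bp apart, against 57.5 bp at kept peaks. MyoG was on 20.1% of the sites marked at both stages, 10.3% of those marked in myoblasts alone, 18.3% of those marked in myotubes alone and 8.60% of those marked at neither.

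Distances from the sites to the nearest of the 39700 myotube MyoD peaks were measured with no background of random positions. Whether the sites lay closer than such positions was not tested. The median distance was 13989 bp, with quartiles at 4247 and 42652 bp. Within 1 kb lay 361 (7.63%), within 10 kb 2009 (42.4%) and within 100 kb 4167 (88.0%), while 22 were over 1 Mb away. The MyoD score hardly varied with this distance, with medians of 97.8 to 106 over 7 classes. H3K4me1 did vary. Within 500 bp of a myotube peak the mark was on 93.2% of sites in myotubes and on 93.2% in myoblasts. At 10 to 50 kb it was on 67.0% in myotubes and 86.4% in myoblasts, and beyond 100 kb on 32.5% in myotubes and 65.3% in myoblasts. The MyoG share was 21.9% within 500 bp and 11.3% beyond 100 kb.

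**Figure D3:**
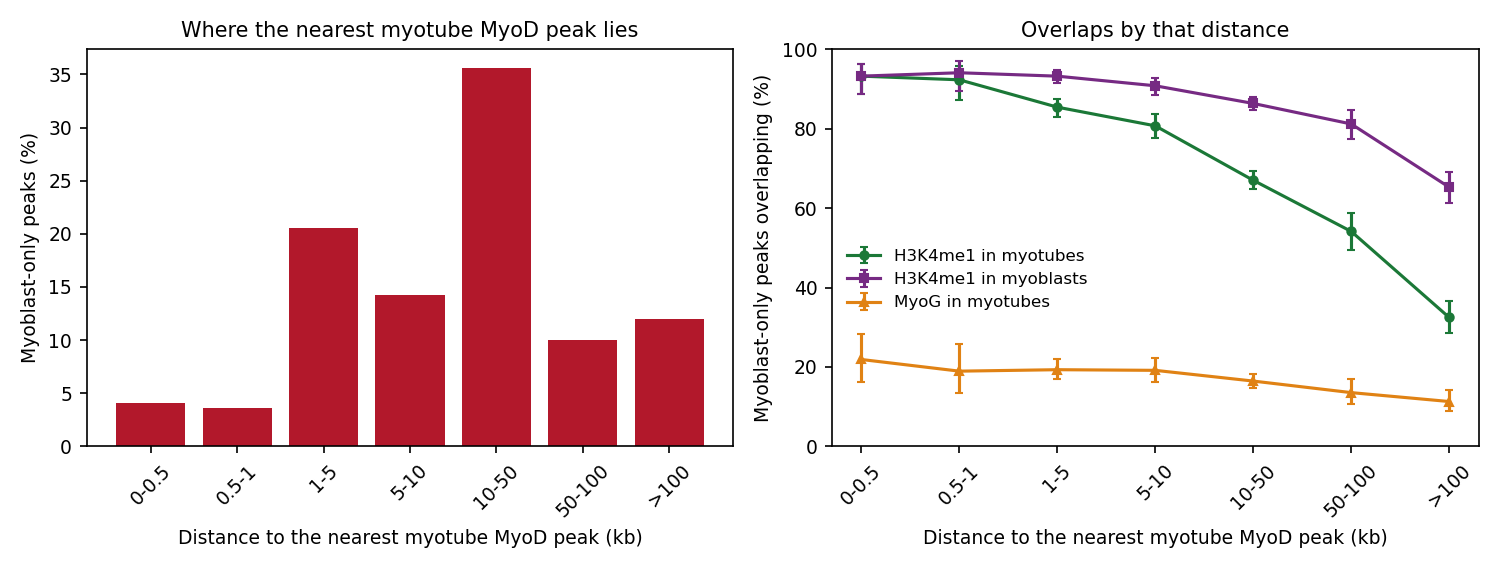
Left, percent of the 4734 myoblast-only sites (vertical axis) by distance to the nearest myotube MyoD peak in kb (horizontal axis). Right, percent of the sites in each distance class that overlap an H3K4me1 domain in myotubes (green), in myoblasts (purple) or a MyoG peak (orange), with exact 95% binomial intervals; beyond 100 kb the myotube mark is at 32.5% and the myoblast mark at 65.3%.

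The strongest myoblast-only site, chr15:51086451-51087294 (mm9), had a score of 1873.3 and ranked 566 in the myoblast list. It lay 364864 bp from the locus of Trps1, a GATA-type transcriptional repressor gene, and 64586 bp from the nearest myotube MyoD peak. Its myoblast H3K4me1 domain was 3.68-fold over control (60 ChIP and 14 control reads), and the nearest myotube domain was 139507 bp away. The next, chr9:100526507-100527231 16811 bp from the cohesin gene Stag1, scored 1780.77 and was marked at both stages (3.06-fold in myotubes, 2.92-fold in myoblasts). A site 2507 bp from Lifr, the receptor gene for leukaemia inhibitory factor, scored 1654.35 and had a fold of 2.43 in myotubes and 3.36 in myoblasts. A site 92033 bp from Pmp22, a myelin protein gene, scored 1636.91 and went the other way, with 3.66-fold in myotubes and 2.74-fold in myoblasts. Among the 10 strongest sites, 2 had no domain in myotubes and 3 overlapped a MyoG peak.

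The other strong site with no myotube domain lay inside Hgf, which encodes hepatocyte growth factor, the ligand of Met that activates satellite cells. The peak, chr5:16107281-16108110, scored 1480.45 and was 174814 bp from the nearest myotube MyoD peak. Its myoblast domain was 9600 bp long and 3.64-fold over control, with 314 ChIP and 74 control reads, and the nearest myotube domain was 34891 bp away. A weak MyoG peak (score 66.2) overlapped it. No MyoD peak of myotubes lay within 10 kb of Hgf. Hgf RNA at 4 h was 11.3 FPKM in DRRi and 8.09 in GFPi, and 23.8 in pHAN_DRR1.2 and 29.4 in pHAN_GFP.

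Myo3b, a class III myosin gene, held 6 myoblast-only peaks, 1 myotube MyoD peak and no kept peak in its locus. Scores of the 6 ran from 64.9 to 1462, and their distances to a myotube MyoD peak from 60780 to 129076 bp. All 6 were in H3K4me1 domains in myoblasts and 4 of 6 in myotubes. At the strongest the fold was 1.84 in myotubes and 3.86 in myoblasts. Myo3b RNA was at or near 0 in all 4 libraries, with a highest value of 0.00944 FPKM.

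Ezh1, which encodes a histone H3K27 methyltransferase, had 8 myoblast-only peaks in a locus of 35.3 kb. None of the 8 had H3K4me1 at either stage or a MyoG peak. Their scores ran from 66.7 to 536, and they lay 410 to 6341 bp from a myotube MyoD peak, interspersed with kept peaks. The kept peaks among them, at chr11:101069246-101069874 (score 412) and chr11:101071623-101072253 (score 214), also had neither H3K4me1 nor MyoG. Kept peaks farther along, at chr11:101082286-101083156 and chr11:101090950-101091811, had H3K4me1 at both stages. The lack of the mark was thus not particular to the myoblast-only peaks of this locus. Of the 10 genes with most sites, Ezh1 had the shortest locus. The locus 1700112E06Rik had 14 sites over 1075 kb, and Dnm3, a dynamin gene, had 8 over 491 kb.

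Runs of sites were counted in order along each chromosome. Any kept or myotube MyoD peak, or the chromosome's last peak, ended a run. No background of random order was calculated, so neither scatter nor grouping can be read from the counts. Of the 4734 sites, 2957 stood singly, 548 pairs stood together, and the longest run held 7. That run, chr14:68658708-69337297, spanned the metalloprotease genes Adam28, Adam7 and Adamdec1 and the neurofilament genes Nefl and Nefm. A run of 6 lay at the collagen gene Col22a1, and a run of 5 at chr1:93570657-93713618 reached Twist2, whose product is known to restrain MyoD.

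Sites lay in gene loci less often than kept peaks did. Inside a locus were 1895 (40.0%), against 51.7% of kept peaks, and inside or within 10 kb were 2405 (50.8%, interval 49.4 to 52.2), against 64.7%. Farther than 50 kb from every locus were 1400 (29.6%), against 18.1%. Loci come from the expression tables and can merge overlapping genes, so a near gene is a position and not a target. Of 20368 gene symbols, 2180 had a myoblast-only site within 10 kb, which is 10.7% of all genes, and 4579 had one within 50 kb. Their median locus was 62.5 kb, against 19.1 kb for all genes. A kept peak was also near 1266 of them. Only 472 genes (2.32%) had a myoblast-only site and no myotube MyoD peak within 10 kb.

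Gene lists chosen for muscle and its neighbours differed in how many members had a site within 10 kb, beside 10.7% of all genes. Extracellular matrix and fibroblast genes had 11 of 28, among them the collagens Col1a2, Col4a1 and Col5a2, the crosslinking enzymes Lox and Loxl2, and the protease inhibitors Timp1, Timp2 and Timp3. Fusion and adhesion genes had 7 of 22, including the adhesion molecules Ncam1 and Vcam1 and the integrin gene Itga7. SRF, YAP and smooth muscle genes had 7 of 22, with the coactivator genes Mkl1, Mkl2 and Myocd. Inhibitors of differentiation and Notch genes had 7 of 26 with a short median locus of 5.88 kb. These were Id1, Id2 and Id3, whose products bind E proteins, with Hes1, Twist2, Bhlhe40 and Hdac4. Each of those 7 also had a kept peak and a myotube MyoD peak within 10 kb. Kept peaks were near many members of these lists too. They were near 71.4% of matrix, 81.8% of fusion, 68.2% of SRF and 76.9% of inhibitor genes, against 29.8% of all genes. Median loci of the matrix, fusion and SRF lists were long, at 37.0, 55.1 and 41.5 kb, against 19.1 kb for all genes.

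Genes of the contractile programme had few sites, and so did cell cycle genes. Sarcomere genes had 1 of 32 (Myoz2, 3.1%) and excitation and muscle metabolism genes 1 of 24 (Ryr1, 4.2%). Cell cycle genes had 1 of 31 (E2f2, 3.2%), and the share over all genes was 10.7%. Kept peaks were near 65.6%, 79.2% and 51.6% of those lists, against 29.8% of all genes. Myotube MyoD peaks, whose overlap the rule excludes, were near 96.9%, 95.8% and 74.2%, against 56.0% of all genes. Myogenic regulators had 4 of 18, among them Pax3, Tcf12 and Tcf4, and 77.8% had a kept peak. Growth factor genes had 7 of 27, TGF-beta, BMP and Wnt genes 6 of 26, and adipocyte and osteoblast genes 4 of 18. Immediate early genes had 4 of 24, cell cycle exit and housekeeping genes 2 of 14 each, and endothelial, blood and neural genes 0 of 14. Locus lengths differed between the lists and were not matched.

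**Figure D4:**
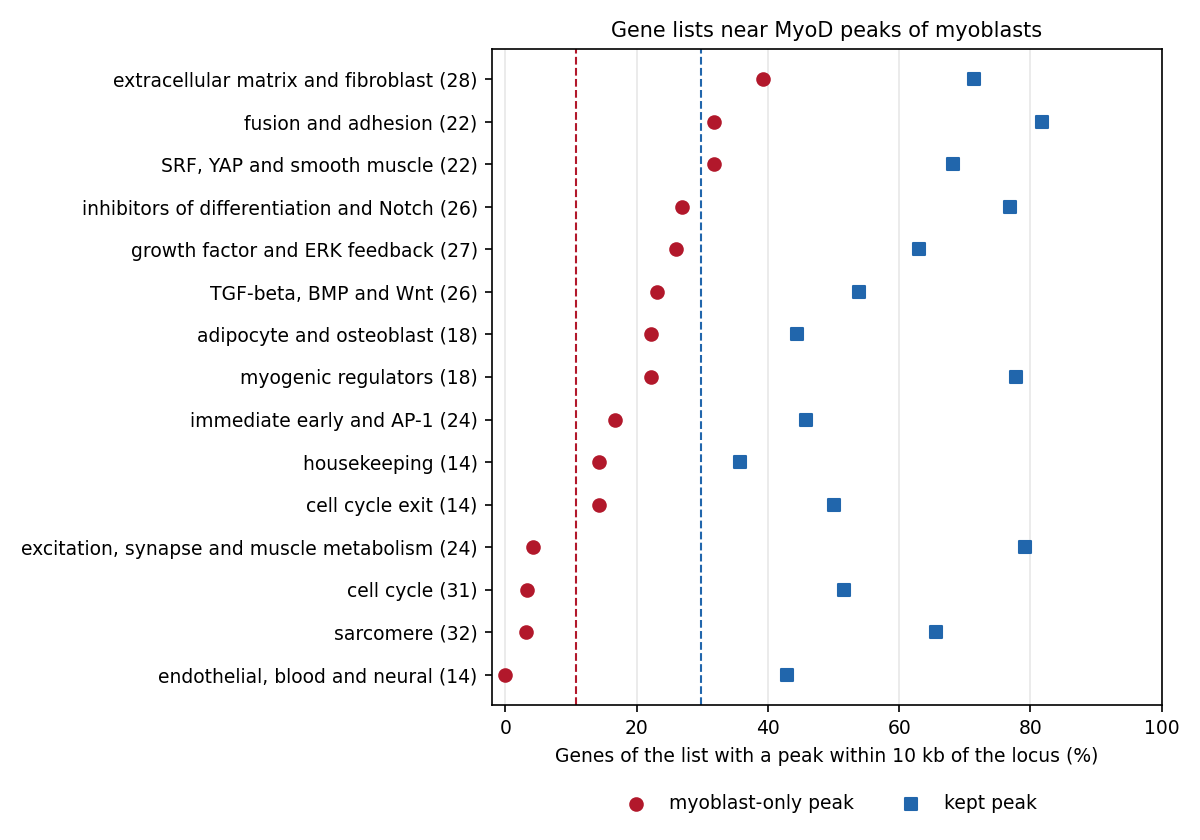
Percent of each gene list (list sizes in parentheses) with a myoblast-only peak (red circles) or a kept peak (blue squares) within 10 kb of the locus. Dashed lines give the same percent over all 20368 genes, 10.7 for myoblast-only and 29.8 for kept peaks; matrix genes stand highest for myoblast-only peaks at 39.3%.

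List members with a myoblast-only site and no myotube MyoD peak near them were 7. Besides Hgf they were Timp1, Fosb, Cnn1, Rbl1, Adipoq and Pgk1. Each was the only such member of its list of 14 to 28 genes (3.57% to 7.14%), and the remaining lists had none. The share over all genes was 2.32%, and no excess in the lists is claimed. The Timp1 locus, 72.4 kb with its merged neighbours, held sites of score 227 and 62.0, both with H3K4me1 at both stages. Adipoq, the adiponectin gene of fat cells, had 3 sites of score 61.0 to 109, of which 1 was marked in myotubes and 2 in myoblasts, and its RNA was at 0.0554 FPKM in DRRi and listed at 0 in GFPi. Rbl1, the p107 pocket protein gene, had a site of score 119 with a myoblast domain (2.48-fold) and no myotube domain. Cnn1, calponin of smooth muscle, had a site of score 76.1 with 3.40-fold H3K4me1 in myotubes and 1.88-fold in myoblasts.

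RNA of genes near the sites was compared at 4 h of differentiation, as log2 of treated over control with 1 FPKM added to each. In bulk RNA, fewer cells of a type and less RNA per cell cannot be told apart. The 6 muscle markers read 8.75 to 577 FPKM in these libraries. The 10 markers of blood, endothelial, fat, bone and glial cells read at most 2.52, and no fibroblast marker was among them. Other genes of the adipocyte and osteoblast list differed. Spp1 was at 1351 in DRRi and 1696 in GFPi, and Runx2 at 12.6 and 12.7, whereas Cebpa was at 1.31 and 1.34. The 10 markers thus do not cover all genes of other cell types. The DRR RNA is not in the coding tables. For DRRi against GFPi, 1372 genes near a site had a mean of 1 FPKM or more, with a median change of 0.04, against 0.02 over all 10577 genes. At 1.5-fold or more, 79 were higher (5.76%), against 4.66% of all genes, and 65 were lower (4.74%), against 3.5%. Among genes with a kept peak and no myoblast-only site the shares were 5.05% and 4.22%. At a mean of at least 5 FPKM, 49 of 1041 genes near a site were higher and 53 lower. The share over all genes was not calculated at that filter, so no excess can be read from these counts.

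For pHAN_DRR1.2 against pHAN_GFP, 1392 genes had a median change of 0.02, as did all 10699 genes. At 1.5-fold or more, 31 were higher (2.23%), against 1.38% of all genes, and 21 were lower (1.51%), against 0.654%. The kept-peak genes stood at 2.02% and 0.809%. With a pseudocount of 0.1, 54 of the 1392 genes were higher, with no share over all genes calculated at that setting. In the authors' deposited table, with q under 0.05, 3 of these genes were higher (0.219%) and 13 lower (0.948%) in DRRi, beside 0.643% and 0.577% of all genes. In the authors' deposited table of the other experiment 25 were higher (1.80%) and 14 lower (1.01%) in pHAN_DRR1.2, beside 1.01% and 0.561%. Genes near a site had a median locus of 64.6 kb in the DRRi table and 65.1 kb in the pHAN table, against 24.7 kb for all genes in each. The 200 genes with no myotube MyoD peak near them had 15 higher (7.5%) and 5 lower (2.5%) in DRRi. In pHAN_DRR1.2 they had 5 higher (2.5%) and 4 lower (2.00%). No test of these differences from all genes was made.

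Loxl2, a lysyl oxidase-like enzyme that crosslinks collagen, stood highest in DRRi among the genes near a site with a mean of 5 FPKM or more. It was at 11.3 FPKM in DRRi and 2.51 in GFPi (log2 change 1.80), and the authors' deposited table gave q = 2.41e-06. Its locus held 5 myoblast-only peaks among 4 kept ones, with scores of 64.0 to 215. All 5 had H3K4me1 in myoblasts and 4 in myotubes, and 1 overlapped MyoG. Apcdd1, an inhibitor of Wnt signalling, was at 10.1 in DRRi and 3.14 in GFPi (1.42). Sprr1a, whose promoter is printed above, was at 9.65 in DRRi and 3.40 in GFPi (1.27), where the authors' deposited table gave q = 0.224, and at 2.28 in pHAN_DRR1.2 and 1.13 in pHAN_GFP (0.62). Apcdd1 and Sprr1a had no myotube MyoD peak within 10 kb. Also among the 10 highest were Hmga1 (1.49), Rnf141 (1.30), Ptp4a3 (0.98), Thbs1 (0.95) and Igf2bp2 (0.93), for which the authors' deposited table gave q between 0.0603 and 0.964. Hmga1 has a near-identical copy, which the table also lists jointly with it (1.03 in DRRi, 0.81 in pHAN_DRR1.2), so its values are uncertain.

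Igfbp5, a binding protein of insulin-like growth factors, stood lowest in DRRi at 237 FPKM, against 760 in GFPi (-1.68). Its only myoblast-only site (score 136) was 2969 bp from a locus with 8 myotube MyoD peaks near it. Gas2, a growth arrest-specific cytoskeletal gene, was at 5.72 in DRRi and 18.3 in GFPi (-1.52). Mylk2, the light chain kinase of skeletal muscle, was at 2.88 in DRRi and 8.86 in GFPi (-1.35). Cxcr4, a chemokine receptor gene of migrating muscle precursors, was at 12.1 in DRRi and 29.1 in GFPi (-1.19). Mgp, an inhibitor of calcification, was at 120.0 in DRRi and 250.2 in GFPi (-1.05), and had no kept or myotube MyoD peak near it. In the authors' deposited table the q was 0.00848 for Igfbp5, 0.00200 for Gas2 and 0.0372 for Mgp. Nptn (-1.20), Cacna2d1 (-1.18), Morf4l1 (-1.11), Schip1 (-1.09) and Rnf128 (-1.09) made up the 10, of which all but Schip1 (q = 0.331) had q under 0.05 in the authors' deposited table.

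Under overexpression of the DRR RNA, Cnn1 stood lowest among such genes. It was at 7.76 FPKM in pHAN_DRR1.2 and 17.3 in pHAN_GFP (-1.06), and the authors' deposited table gave q = 0.000241. Prelp, a matrix proteoglycan, was at 20.1 in pHAN_DRR1.2 and 35.9 in pHAN_GFP (-0.80). Ogn, osteoglycin, was at 499 in pHAN_DRR1.2 and 862 in pHAN_GFP (-0.79), and its neighbour Aspn (-0.79) shares its merged locus and its 3 sites. Col12a1, a fibril-associated collagen, was at 117 in pHAN_DRR1.2 and 201 in pHAN_GFP (-0.77). C1qtnf3 (-0.99), Fndc1 (-0.89), Dkk3 (-0.80), Apln (-0.78) and Daam2 (-0.78) completed the 10. Of these 10, the authors' deposited table gave q under 0.05 to Cnn1, Fndc1, Prelp, Dkk3, Apln and Daam2. In the authors' deposited table q was 0.0718 for Ogn, 1.00 for Aspn, 0.0956 for Col12a1 and 0.705 for C1qtnf3. Highest were Mcpt8, a granule protease gene at 8.71 in pHAN_DRR1.2 and 3.60 in pHAN_GFP (1.08), Neurl1a (1.05), Fam167a (1.04), Sorcs2 (1.01) and Cdh18 (0.94). Gap43 (0.89), Pla1a (0.88), Pdlim1 (0.87) and Gprc5a (0.83) followed. Cnn1, Apln, Mcpt8 and Gprc5a had no myotube MyoD peak within 10 kb.

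**Figure D5:**
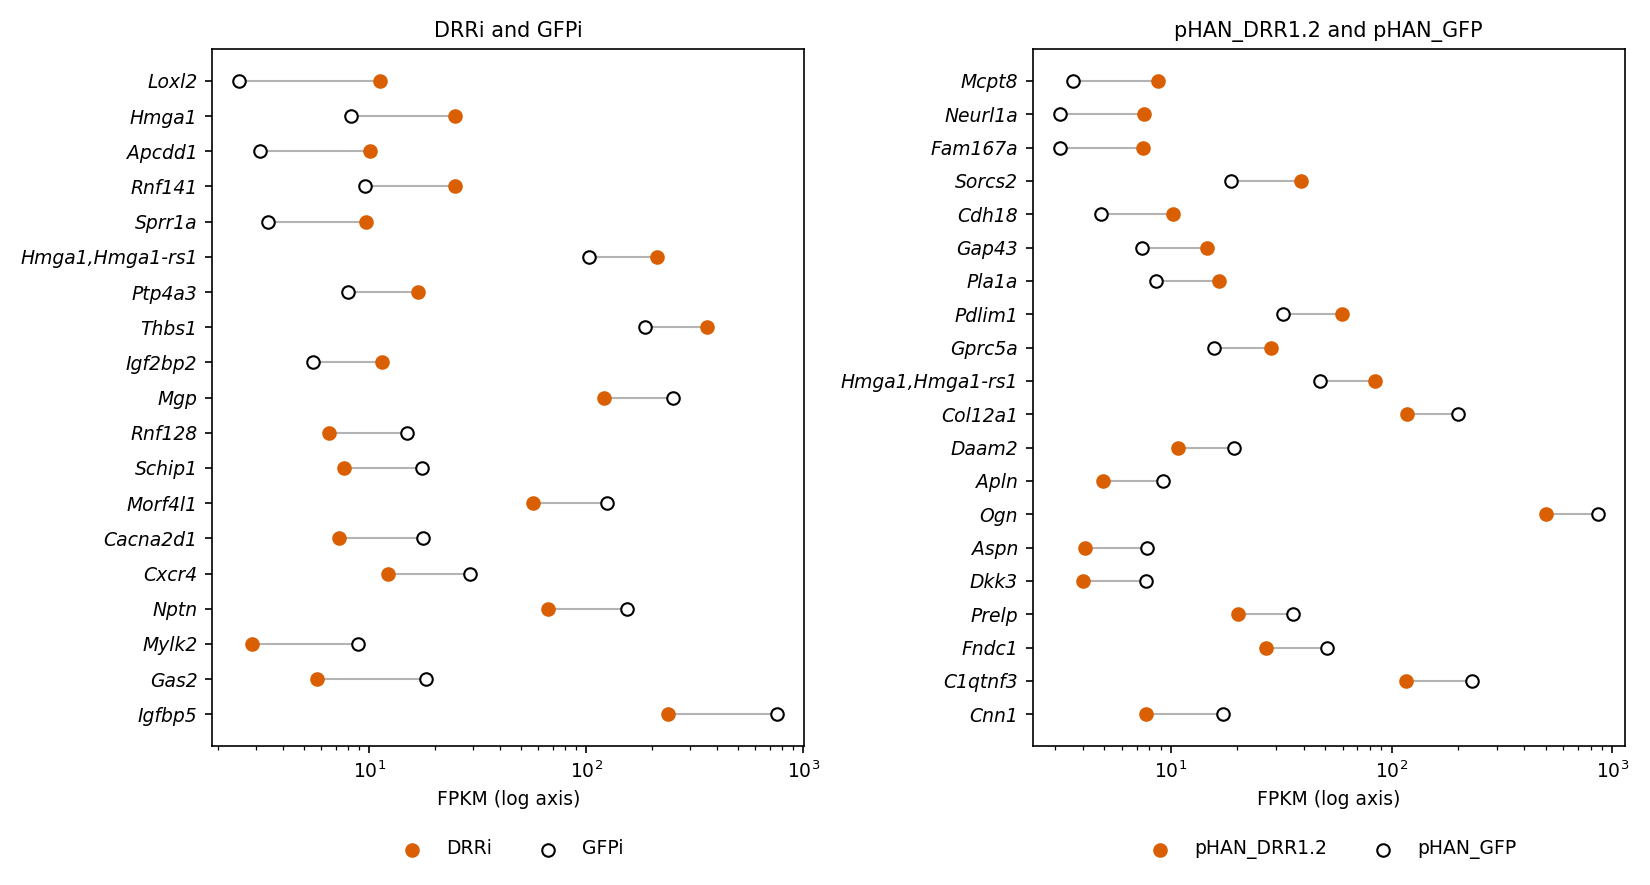
FPKM (log axis) of genes with a myoblast-only peak within 10 kb that are among the highest and lowest changes past 1.5-fold, in DRRi (filled) and GFPi (open) on the left and in pHAN_DRR1.2 (filled) and pHAN_GFP (open) on the right, 1 library each. Loxl2 stands at 11.3 in DRRi and 2.51 in GFPi, and Cnn1 at 7.76 in pHAN_DRR1.2 and 17.3 in pHAN_GFP.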

How the data were processed

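Per the file headers, MACS gave the lists of MyoD and MyoG peaks, and each peak carries a score the authors deposited, whose definition is not given in the sources used here. The labels name 2 runs per MyoD or MyoG sample and the header of the myotube MyoD list names run 2; pooling is not given in the sources used here. H3K4me1 domains lie on 200 bp windows and carry deposited read counts of ChIP and control, a p-value, a fold (the ratio of ChIP to control reads times a constant per file) and an adjusted p-value. SICER, TopHat, bedtools and mm9 are named in the submitters' processing notes. The expression tables hold the authors' FPKM per coding sequence and condition, with a deposited p-value and q-value. The treated condition in each table was assigned by elimination, as the column that does not name GFP. The sequencing depth behind the FPKM values is unknown, and the domains hold 8842751 ChIP reads in myotubes and 9555012 in myoblasts.

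Overlaps needed 1 bp, and distances run edge to edge. FPKM was summed per symbol, kept at a mean of 1 or more, and compared as log2 with a pseudocount of 1. The q given for a gene is the lowest among its coding sequences, with the direction of that sequence, and does not belong to the summed FPKM. Tables were normalized separately and are compared only within themselves. Python 3.11.15, pandas 2.3.3, numpy 2.4.6, scipy 1.17.1 and matplotlib 3.10.9 were used, and overlap and distance code was tested on simulated data. A promoter was used where the RefSeq gene and the locus of the table had lengths within 100 bp, and counted as covered where a peak covered 150 bases or more of the window laid at the locus start. Named items are the 10 strongest sites, the 10 genes with most sites, the 10 highest and 10 lowest changes past 1.5-fold per table at a mean of 5 FPKM or more, list members with no myotube MyoD peak within 10 kb, and the sites nearest the overlap rule. Values of 2 genes that these rules or the gene lists name are not reported here. The sites and the 15 gene lists were chosen with earlier results of these data known.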

Additional observations from a re-analysis of the deposited data

How the results depend on the processing

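Of 52 alternative values, 24 stayed within the interval of the reported value, or within 1.5 times of a count, and 28 moved beyond it. With 50% of the peak covered in place of 1 bp, H3K4me1 in myotubes was at 67.4% of myoblast-only and 87.8% of kept peaks, in myoblasts at 84.5% and 83.6%, which turns the order of the sets round, and MyoG at 13.2% and 72.6%. With a MyoD score of 100 or more, 2373 sites remained, and the shares were 71.3% and 92.3% in myotubes, 90.2% and 90.4% in myoblasts, and 20.2% and 83.9% for MyoG. MyoG peaks of score 100 or more, an alternative chosen after seeing the data, gave 5.91% and 69.5%. Leaving out the sites at Ezh1, also chosen after seeing the data, gave 69.4%, 86.1% and 16.8%. Within 5 kb of a locus were 46.1% of sites and within 50 kb 70.4%, and 4579 genes had a site within 50 kb. For DRRi, 49 of 1041 genes were higher and 53 lower at a mean of 5 FPKM or more. No share over all genes was calculated at that filter. The 200 genes with no myotube MyoD peak had 15 higher (7.5%, against 4.66% of all genes) and 5 lower (2.5%, against 3.5%). Their median was 0.0915, and genes near a site had a median of 0 with no filter. For pHAN_DRR1.2, 54 of 1392 genes were higher with a pseudocount of 0.1, again with no share over all genes at that setting. The 200 genes with no myotube MyoD peak had 5 higher (2.5%, against 1.38% of all genes) and 4 lower (2.00%, against 0.654%). Their median was 0.0338, and genes near a site had a median of 0 with no filter. The causes of these shifts were not tested. No paired analysis was possible because each group holds 1 sample. E-box content of the peaks was not run, since no mm9 genome was at hand; promoters were searched in its place, a choice made after seeing the data. With 1 library per group, the spread between libraries is unknown.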

Other observations

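The share of myoblast MyoD peaks that were myoblast-only ran from 21.8% on chromosome 11 (271 of 1245) to 30.4% on chromosome X (91 of 299). Among promoters placed on mm9 loci, the highest peak scores of myoblast-only sites belonged to the keratin-associated genes Krtap4-16 (score 452.35) and Krtap1-4 (369.98), both listed at 0 FPKM in all 4 libraries. Krtap1-4 lay in H3K4me1 domains of 2.44-fold in myotubes and 4.14-fold in myoblasts, and Krtap4-16 lay in none.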
